A study of Rattus norvegicus with 16 samples.

Results

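The transcripts of complement component C3, of the 3 chains of C1q (C1qa, C1qb and C1qc) and of lipocalin 2 (Lcn2) were followed in cultured rat microglia given lipopolysaccharide (LPS), apolipoprotein A-I (ApoA-I) or both. These 5 genes were taken by identifier from the 30560 genes listed: ENSRNOG00000046834 for C3, ENSRNOG00000012807 for C1qa, ENSRNOG00000012749 for C1qb, ENSRNOG00000012804 for C1qc and ENSRNOG00000013973 for Lcn2. All 5 were among the 11902 genes with enough counts to be tested. Even the libraries without LPS, where Lcn2 was lowest, held 27 to 82 Lcn2 counts each, so no gene entered the test only through the group in which it was high.

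Complement is a cascade of proteins that tags targets for removal and calls in immune cells. C1q starts the classical pathway by binding to antibody or directly to a surface, and the cascade leads to cleavage of C3, whose fragments coat the target and are read by receptors on phagocytes. C1q is built from equal numbers of A, B and C chains, each encoded by its own gene, and microglia are a main source of it in the brain, where C1q and C3 are known for tagging synapses. Lipocalin 2 is a secreted protein that binds bacterial siderophores and so withholds iron from bacteria, and it is a well-known product of cells exposed to LPS.

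RNA was sequenced from wild type primary microglia, the resident macrophages of the brain, at day 12 in vitro. Of 4 groups of 4 libraries, Control received neither agent, ApoA-I received apolipoprotein A-I protein (the main protein of high-density lipoprotein) at 100 ug/ml, LPS received lipopolysaccharide (a bacterial cell wall component that microglia sense) at 100 ng/ml for 20 hours, and LPS+ApoA-I received both. The labels do not say that replicates came from separate cultures or animals; the p-values therefore weigh differences against a spread between libraries that may be technical only. Total counts ranged from 12304916 to 17262383 per library. The cell type could not be checked against marker genes, because the counts carry Ensembl identifiers without symbols and 0 of the 47357 genes in RefSeq's table (GRCr8) have one. For the same reason the receptors, regulators and other components of the complement pathway are not described. In bulk RNA, fewer cells of a type and less RNA per cell cannot be told apart.

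The names of the 5 genes come from the list that defined them. The effective transcript length, which follows up to a common factor from the deposited count divided by the deposited TPM (a level per transcript length, scaled to the same sum in each library), was compared with those names. That of C3 was 7.16 to 7.73 times that of Lcn2 over the 16 libraries, while C1qa lay at 1.07 to 1.13 times, C1qb at 1.18 to 1.25 times and C1qc at 1.43 to 1.58 times. C3 encodes a far longer protein than the other genes, so the order of lengths did not go against the names. Each of the 5 genes had whole-number counts in all 16 libraries (within 0.005). In RefSeq's GRCr8 annotation none of the 5 overlaps another gene, and C1qb, C1qc and C1qa lie next to each other in that order, with no listed gene between them.

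The stretches of 250 bases before the RefSeq start sites (GRCr8) of these genes are shown for the 4 that had an entry, C1qc having none. Each is written 5′ to 3′ on the strand of the gene, and capitals mark matches, on either strand, to short motifs of factors known from LPS responses or myeloid cells.

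C3 (chr9:2201340-2201589, minus strand): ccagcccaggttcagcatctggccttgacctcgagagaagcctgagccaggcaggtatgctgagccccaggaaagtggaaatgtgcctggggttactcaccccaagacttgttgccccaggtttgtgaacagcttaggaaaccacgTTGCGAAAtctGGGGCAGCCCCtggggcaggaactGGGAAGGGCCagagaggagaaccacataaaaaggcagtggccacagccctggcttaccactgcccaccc

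C1qa (chr5:154419934-154420183, minus strand): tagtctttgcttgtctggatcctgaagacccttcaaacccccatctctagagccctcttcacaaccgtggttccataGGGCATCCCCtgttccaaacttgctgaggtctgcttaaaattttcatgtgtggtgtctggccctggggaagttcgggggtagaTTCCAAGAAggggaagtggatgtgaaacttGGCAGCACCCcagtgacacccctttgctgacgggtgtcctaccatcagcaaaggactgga

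C1qb (chr5:154407828-154408077, minus strand): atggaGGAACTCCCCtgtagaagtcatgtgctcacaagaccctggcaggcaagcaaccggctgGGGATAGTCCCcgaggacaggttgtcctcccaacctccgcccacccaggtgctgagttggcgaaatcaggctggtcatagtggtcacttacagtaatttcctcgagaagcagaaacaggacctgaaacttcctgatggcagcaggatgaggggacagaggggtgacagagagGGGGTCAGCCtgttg

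Lcn2 (chr3:36081781-36082030, minus strand): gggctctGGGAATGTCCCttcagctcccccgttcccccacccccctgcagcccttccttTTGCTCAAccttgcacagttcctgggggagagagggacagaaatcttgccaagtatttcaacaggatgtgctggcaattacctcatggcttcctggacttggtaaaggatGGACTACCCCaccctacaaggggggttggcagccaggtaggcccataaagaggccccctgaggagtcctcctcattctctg

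The motifs searched were a loose pattern for NF-kB (3 guanines, any 5 bases, then 2 cytosines), TTGCNNAA for C/EBP and TTCNNNGAA for STAT, and they were chosen with the sequences in view. The letters GAGGAAG of the myeloid factor PU.1 were searched as well. A TATA box was searched as TATAAA. C3 and Lcn2, but not C1qa or C1qb, held the C/EBP letters, TTGCGAAA from 104 to 97 bases before the C3 start and TTGCTCAA from 191 to 184 bases before the Lcn2 start. These letters were present in 9.22% of the 33469 promoter windows of the same length. The NF-kB letters occurred in all 4 windows but also in 42.3% of all promoter windows, so this loose pattern is common. In Lcn2 they form GGGAATGTCC, from 243 to 234 bases before the start, which overlaps a match on the other strand. The STAT letters were found in C1qa only, at 90 to 82 bases before the start, against 7.67% of all windows. PU.1 and TATA letters, present in 10.2% and 12.9% of all windows, had no match in the 4 windows, which says only that these letters are not there. Whether any of the motifs bears on the changes in transcript level was not tested.

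C3, the component on which all complement pathways converge, was high in untreated microglia, fell with LPS, and was highest when ApoA-I was given together with LPS. Its TPM was 1042, 1153, 945 and 1220.5 in Control 1 to 4 and 1312, 1208, 1340.2 and 1208 in ApoA-I libraries. With LPS the values were 458, 451, 444 and 583, and with LPS+ApoA-I 1467, 1423, 1543 and 1525. The LPS libraries lay below, and the LPS+ApoA-I libraries above, all the others, while Control and ApoA-I overlapped. Group means in the order of level were 484 ± 66.3 for LPS, 1090.3 ± 121 for Control, 1267 ± 69.1 for ApoA-I and 1489 ± 54.8 for LPS+ApoA-I (TPM, SD, n = 4 each).

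**Figure D1:**
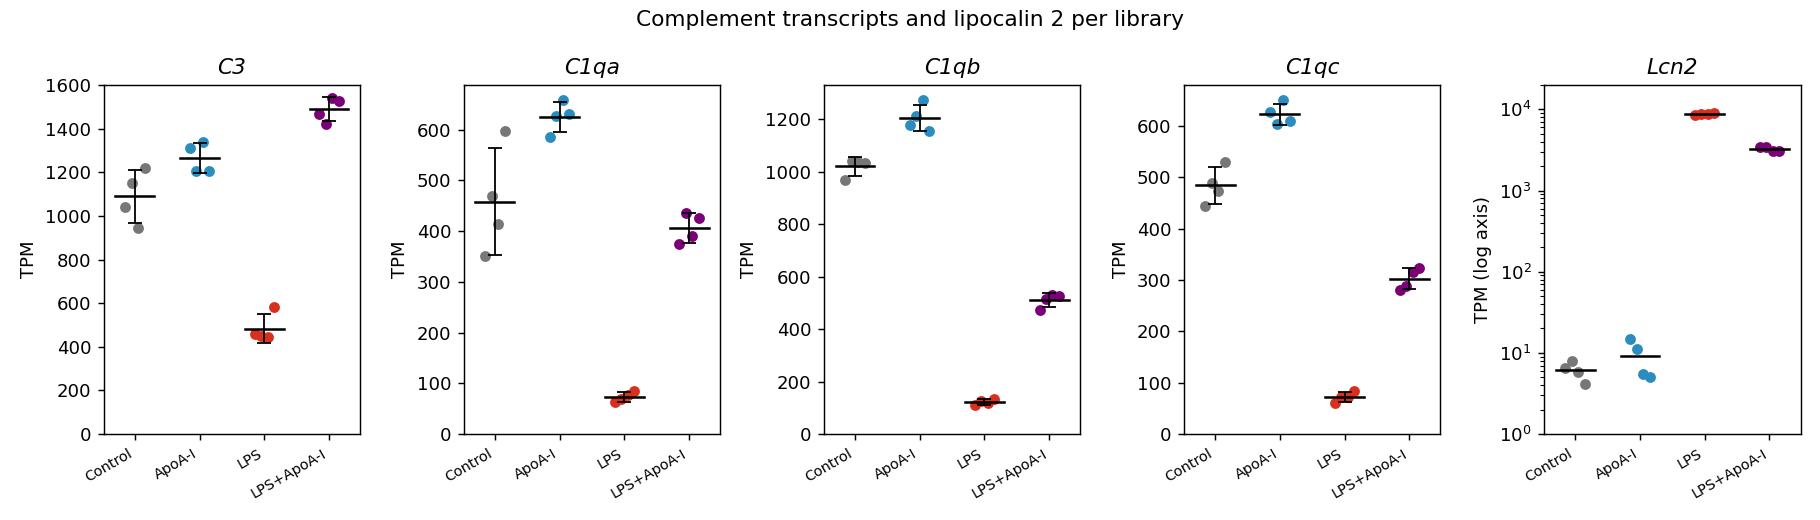
TPM of C3, C1qa, C1qb, C1qc and Lcn2 in each library (points) by group, with the group mean (horizontal line) and, except for Lcn2 on its log axis, the SD (bars, n = 4). C3 and the C1q chains were lowest in the LPS libraries, Lcn2 was highest there, and C3 alone was highest in the LPS+ApoA-I libraries.

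Changes were tested with edgeR's quasi-likelihood test on the counts of all 11902 genes, with Benjamini-Hochberg adjustment, and a gene was called at an adjusted p under 0.05. C3 fell by 0.75 log2 units in LPS against Control (SE 0.07, edgeR adjusted p = 1.92e-09), a 1.68-fold lower level. In LPS+ApoA-I against LPS it rose by 1.48 (SE 0.07, edgeR adjusted p = 1.16e-13), or 2.80-fold. LPS+ApoA-I also exceeded Control, by 0.74 log2 units (SE 0.07, edgeR adjusted p = 3.38e-09). With ApoA-I present, LPS therefore went with a higher and not a lower C3 level: LPS+ApoA-I against ApoA-I gave 0.59 log2 units (SE 0.07, edgeR adjusted p = 1.26e-07). Of the 6958 genes called in both responses to LPS, 440 (6.32%) had opposite directions, and 208 of those were, like C3, lower with LPS alone and higher with LPS in the presence of ApoA-I. ApoA-I without LPS gave 0.15 log2 units (95% interval 0.01 to 0.29), which did not pass the test (edgeR adjusted p = 0.245). The sizes depended on the scaling: on log2(TPM + 1) with limma the changes were -1.17 in LPS against Control, 0.23 in LPS+ApoA-I against ApoA-I and 0.46 in LPS+ApoA-I against Control, with the same directions and calls. On that scale the median of all tested genes moved by -0.37 in LPS against Control, against -0.04 in the edgeR fit, and by -0.30 in LPS+ApoA-I against ApoA-I, against -0.01. Over 27 alternative analyses (edgeR, DESeq2 or limma) the largest adjusted p of C3 in LPS+ApoA-I against ApoA-I was 0.0431, just under the threshold.

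The C1q chains, which recognise the target in the classical pathway, fell with LPS to lower fractions of their Control level than C3, and were again higher with LPS+ApoA-I. C1qa had 351, 470.0, 415 and 598 TPM in Control libraries and 586, 626, 658 and 631 with ApoA-I, against 62.9, 69.1, 77.7 and 84.8 with LPS and 374, 435, 390 and 425 with LPS+ApoA-I. Control C1qa was spread more widely (458 ± 105, SD, n = 4) than the other groups, from 351 TPM in Control 1 to 598 in Control 4. The latter lay above 1 of the ApoA-I libraries. C1qb had 967, 1042, 1035 and 1033 TPM in Control libraries and 1178, 1212, 1272 and 1155 with ApoA-I, against 111, 127, 119 and 134 with LPS and 473, 515, 529 and 526 with LPS+ApoA-I. By TPM the 4 groups of C1qb did not overlap, and their order was LPS, LPS+ApoA-I, Control and ApoA-I. C1qc had 444, 488, 473 and 529.9 TPM in Control libraries and 626, 604, 650.2 and 610.2 with ApoA-I, against 61.4, 72.2, 72.9 and 84.3 with LPS and 281, 288, 315 and 324 with LPS+ApoA-I. C1qc had the same order of groups without overlap by TPM, whereas for C1qa the Control libraries overlapped both LPS+ApoA-I and ApoA-I. By scaled counts (CPM), Control and ApoA-I overlapped for C1qb (471 to 535 and 526 to 608) and C1qc (262 to 339 and 336 to 378). How many tested genes had 4 groups without overlap was not counted.

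All 3 chains fell in LPS against Control. C1qb fell by 2.63 log2 units (SE 0.06, edgeR adjusted p = 4.3e-20), C1qc fell by 2.28 (SE 0.08, edgeR adjusted p = 2.6e-17) and C1qa fell by 2.21 (SE 0.12, edgeR adjusted p = 2.56e-13), which are 6.20-fold, 4.87-fold and 4.63-fold lower levels. All 5 genes were called in this comparison, as were 74.7% of tested genes: with C3, 4 of them fell, where 38.4% of tested genes did, and Lcn2 rose, where 36.3% did. The median log2 change was -2.21 over the 5 genes and -0.04 over all tested genes. Of all tested genes 939 had a lower log2 change than C1qa, 907 than C1qc and 729 than C1qb. Scaled counts (CPM) of the LPS and Control libraries did not overlap for any of the 5 genes, as for 67.5% of tested genes.

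In LPS+ApoA-I against LPS the chains rose by 2.33 log2 units for C1qa (SE 0.12, edgeR adjusted p = 7.63e-13), 1.93 for C1qb (SE 0.06, edgeR adjusted p = 1.32e-16) and 1.90 for C1qc (SE 0.08, edgeR adjusted p = 8.33e-15). These are 5.03-fold, 3.80-fold and 3.72-fold higher levels. Again all 5 genes were called, against 51.4% of tested genes. With C3, 4 of them rose, against 26.4% of tested genes, and Lcn2 fell, against 24.9%. The median log2 change was 1.90 over the 5 genes and 0.03 over all tested genes. Only 100 of the 11902 tested genes had a larger log2 change than C1qa, while 184 exceeded C1qb, 190 exceeded C1qc and 358 exceeded C3. CPM ranges of LPS+ApoA-I and LPS libraries did not overlap for any of the 5 genes, as for 47.9% of those tested.

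The return toward Control was unequal. C1qb remained below Control in LPS+ApoA-I libraries by -0.70 log2 units (SE 0.06, edgeR adjusted p = 1.96e-10) and C1qc by -0.39 (SE 0.07, edgeR adjusted p = 4.47e-05), the latter by -0.68 on log2(TPM + 1) (limma adjusted p = 5.01e-07). C1qa differed from Control by 0.12 (95% interval -0.11 to 0.35, edgeR adjusted p = 0.351), so no difference was detected, and its sign depended on the scaling, with -0.15 on log2(TPM + 1). Without Control 4 the C1qa difference was 0.28 and passed the test (edgeR adjusted p = 0.00543). In this comparison 4 of the 5 genes were called, against 69.6% of tested genes: C3 and Lcn2 were higher and C1qb and C1qc lower, against 34.4% and 35.2% of tested genes. The CPM ranges of the same 4 did not overlap, as for 64.1% of tested genes.

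With ApoA-I present, LPS lowered C1qb by -0.87 log2 units (SE 0.06, edgeR adjusted p = 6.28e-12) and C1qc by -0.68 (SE 0.07, edgeR adjusted p = 1.94e-08), the latter by -1.04 on log2(TPM + 1) (limma adjusted p = 1.68e-09). C1qa, at -0.25 (SE 0.11, edgeR adjusted p = 0.0516), missed the threshold. It passed in 14 of 27 alternative analyses, with -0.62 on log2(TPM + 1) (limma adjusted p = 0.000185) and -0.25 without Control 4 (edgeR adjusted p = 0.00732), and the direction was the same in all 27. The other 4 genes were called in LPS+ApoA-I against ApoA-I, where 69.4% of tested genes were, with C3 and Lcn2 higher, against 34.5% of tested genes, and C1qb and C1qc lower, against 34.8%. Their CPM ranges did not overlap either, as for 63.1% of tested genes. The part of the LPS change that was kept with ApoA-I, on the log2 scale, was 0.33 for C1qb, 0.30 for C1qc and 0.11 for C1qa, and -0.78 for C3, whose change had the other sign. These parts depended on the scaling: on log2(TPM + 1) they were 0.41 for C1qb, 0.38 for C1qc, 0.24 for C1qa and -0.20 for C3. The median part kept was 0.65 among the 8896 genes that LPS alone changed.

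**Figure D2:**
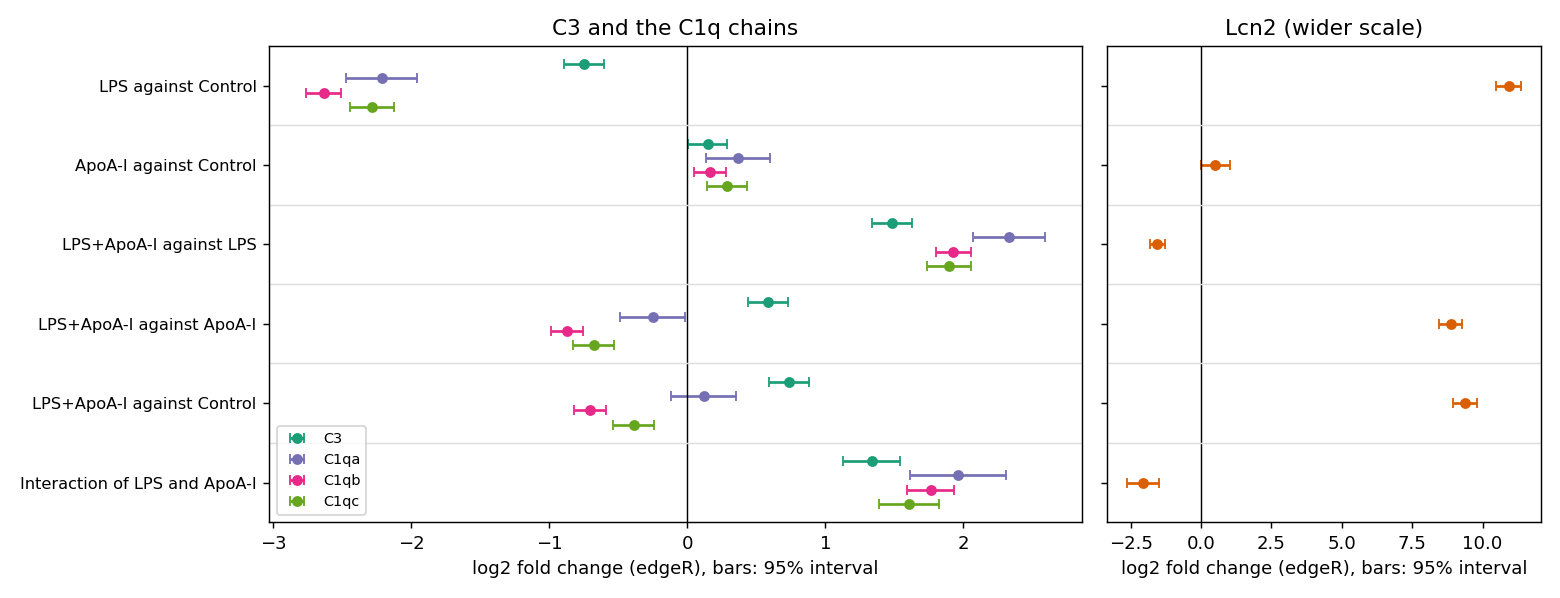
Log2 fold changes of the 5 genes in the 6 comparisons (edgeR; points with 95% intervals), with C3 and the C1q chains on the left and Lcn2 on a wider scale on the right. In LPS+ApoA-I against Control, C3 lay above 0, C1qb and C1qc below, and the interval of C1qa held 0.

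With ApoA-I and no LPS the C1q chains were at or slightly above their Control level. C1qc rose by 0.29 log2 units (SE 0.07, edgeR adjusted p = 0.0217), or 1.22-fold, the 1 call among the 5 genes, where 4.27% of tested genes were called, 2.50% higher and 1.77% lower. By CPM the ApoA-I and Control ranges of all 5 genes overlapped, while 8.26% of tested genes had ranges that did not. By TPM those of C1qb and C1qc did not overlap, but the share of tested genes without overlap was not counted on TPM. On log2(TPM + 1) the median of all tested genes moved by 0.06 in this comparison, against -0.0003 in the edgeR fit. C1qa had 0.37 (95% interval 0.14 to 0.60, edgeR adjusted p = 0.0629) and C1qb 0.16 (95% interval 0.05 to 0.28, edgeR adjusted p = 0.0963), and neither passed the test. Without Control 4, C1qa had 0.54 (edgeR adjusted p = 0.000311) and C3 0.22 (edgeR adjusted p = 0.0498). The call of C1qc was lost without Control 1 (edgeR adjusted p = 0.084), Control 2 (0.0626), Control 3 (0.0506) or ApoA-I 3 (0.0635), and when the other groups were left out of the fit (0.0772). No call of the 5 genes in this comparison held in all 27 alternatives. A set of 8 abundant genes that vary together within groups held 4.05% to 11.9% of the counts of Control libraries and 1.61% to 9.44% of those of ApoA-I libraries, and with their share as a covariate C1qc had 0.27 (edgeR adjusted p = 0.0944).

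The balance of the C1q chains within a library, which does not depend on the scaling between libraries, also differed between groups. C1qb made up 54.9%, 52.1%, 53.8% and 47.8% of the summed C1q TPM in Control libraries and 49.3%, 49.6%, 49.3% and 48.2% with ApoA-I, against 47.1%, 47.4%, 44.1% and 44.2% with LPS and 41.9%, 41.6%, 42.9% and 41.3% with LPS+ApoA-I. Its share was lower in each LPS+ApoA-I library than in any other. C1qa made up 19.9%, 23.5%, 21.6% and 27.7% in Control libraries and 24.5%, 25.6%, 25.5% and 26.3% with ApoA-I, against 26.7%, 25.7%, 28.8% and 28.0% with LPS and 33.2%, 35.2%, 31.6% and 33.3% with LPS+ApoA-I. Here too the LPS+ApoA-I libraries stood apart, on the high side, while the other 3 groups overlapped. C1qc varied less, between 23.3% and 27.8% in all 16 libraries. Its share with LPS (26.1% to 27.8%) lay above Control (24.4% to 25.2%) and LPS+ApoA-I (23.3% to 25.5%) and overlapped ApoA-I (24.7% to 26.2%). The C1qa transcript thus had 0.448 ± 0.0944 times the C1qb level in Control and 0.795 ± 0.0452 times in LPS+ApoA-I libraries (TPM ratio, SD, n = 4 each). These shares are a description without a test.

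C3 and C1q also changed their ratio. C3 had 0.591, 0.576, 0.491 and 0.565 times the summed C1q TPM in Control libraries and 0.549, 0.495, 0.519 and 0.504 times with ApoA-I. With LPS the ratio was 1.95, 1.68, 1.65 and 1.93, and with LPS+ApoA-I it was 1.22 ± 0.0654 (SD, n = 4). Every library with LPS had more C3 than summed C1q transcript per length, and every library without LPS had less. Summed C1q itself went from 1962 ± 166 TPM in Control to 269 ± 27.6 in LPS and 1219 ± 62.9 in LPS+ApoA-I libraries, and was 2452 ± 88.8 in ApoA-I libraries (SD, n = 4 each).

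**Figure D3:**
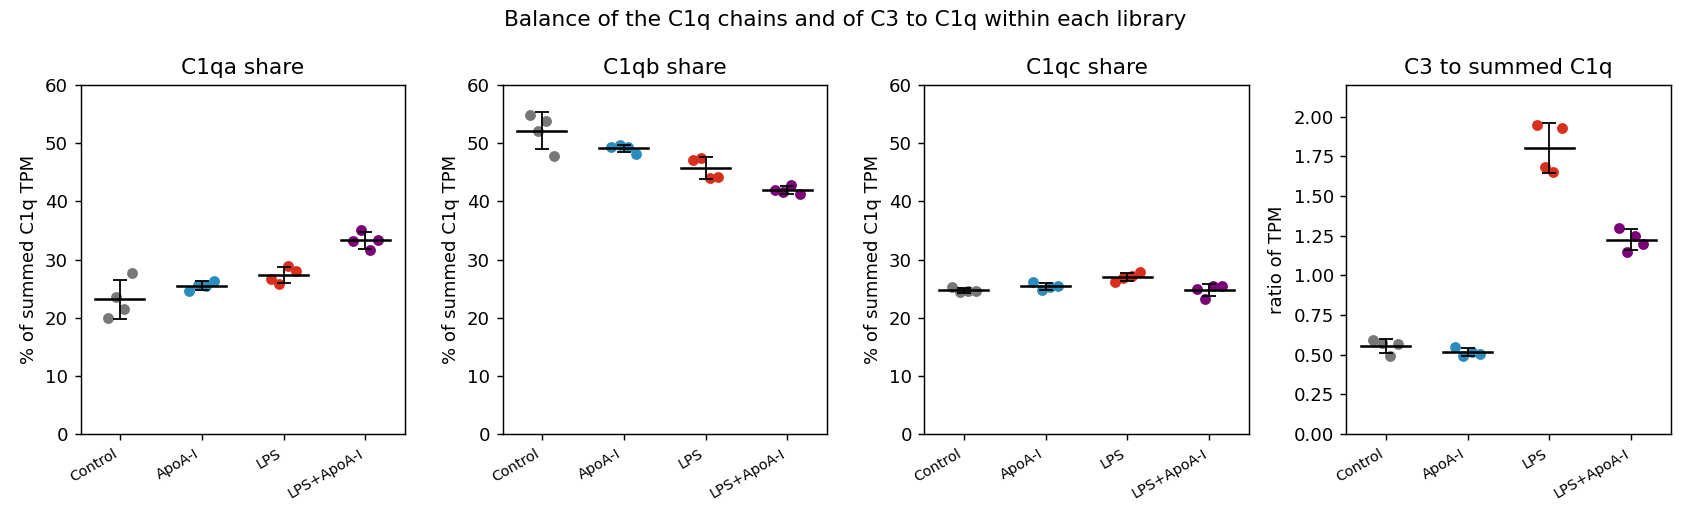
Share of each C1q chain in the summed C1q TPM, and ratio of C3 to summed C1q TPM, in each library (points) by group, with mean (line) and SD (bars, n = 4). The C1qa share was between 31.6% and 35.2% in LPS+ApoA-I libraries, above all other libraries, and the C3 ratio was above 1 in all libraries with LPS.

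In LPS against Control, lipocalin 2 had the opposite direction to C3 and the C1q chains and a far larger log2 change. Its TPM was 6.44, 7.85, 5.89 and 4.18 in Control libraries and 14.8, 11.2, 5.48 and 5.06 with ApoA-I, against 8566, 8743, 8763 and 9026 with LPS and 3454, 3442, 3082 and 3043 with LPS+ApoA-I. Control and ApoA-I overlapped, and the 2 groups with LPS were apart from them and from each other. By TPM, Lcn2 was between the 9th and the 11th most abundant of all listed genes in LPS libraries, between the 38th and the 48th in LPS+ApoA-I libraries and no higher than rank 6492 in the libraries without LPS. It made up 0.877% ± 0.0190 of all TPM with LPS and 0.326% ± 0.0223 with LPS+ApoA-I (SD, n = 4 each). Relative to C3 it had 18.3 ± 1.95 times the TPM in LPS libraries and 2.19 ± 0.227 times in LPS+ApoA-I libraries (SD, n = 4 each).

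In LPS against Control, Lcn2 rose by 10.92 log2 units (SE 0.21, edgeR adjusted p = 1.91e-21), or 1943-fold, from 27 to 45 counts per Control library, and only 11 of the tested genes had a larger log2 change. In LPS+ApoA-I against LPS it fell by 1.56 log2 units (SE 0.13, edgeR adjusted p = 1.44e-09), a 2.94-fold lower level, with 304 tested genes changing further downward. LPS+ApoA-I remained 9.37 log2 units above Control (SE 0.20, edgeR adjusted p = 2.99e-20). Against ApoA-I the rise was 8.87 (SE 0.19, edgeR adjusted p = 5.38e-20), with only 4 tested genes higher, so 0.81 of the log2 response to LPS was kept. ApoA-I without LPS gave 0.50 (95% interval -0.01 to 1.01, edgeR adjusted p = 0.276), which did not pass the test. The ApoA-I libraries themselves held 82, 64, 31 and 28 counts, and without ApoA-I 1 the value was 0.20 (edgeR adjusted p = 0.788).

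**Figure D4:**
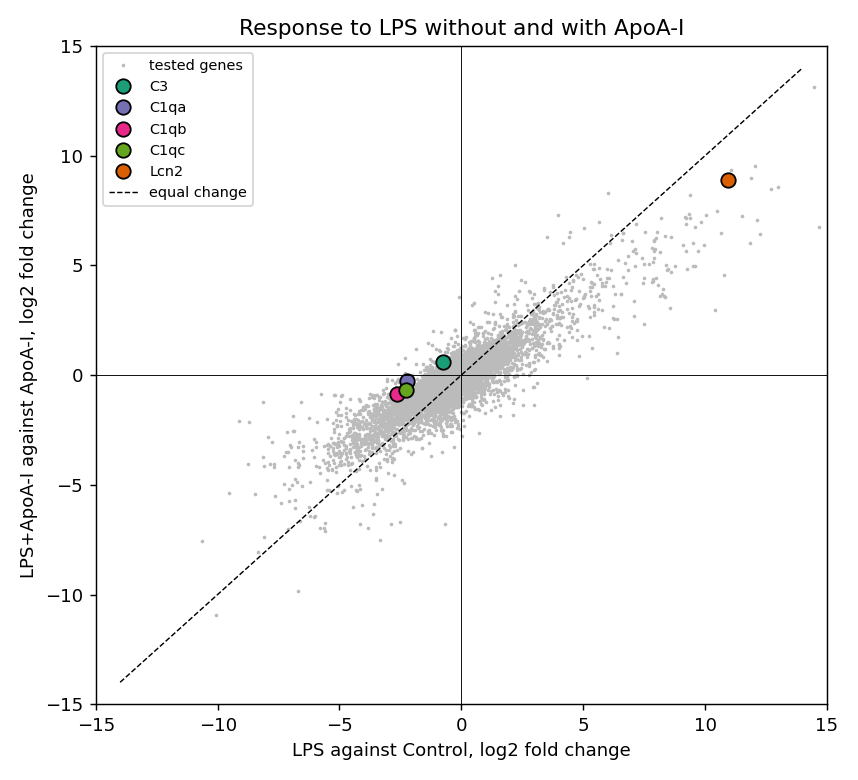
Log2 fold change of each tested gene in LPS against Control (x axis) and in LPS+ApoA-I against ApoA-I (y axis), from separate libraries, with the 5 genes as large points and the line of equal change dashed. Lcn2 lay at 10.92 and 8.87, the C1q chains between the horizontal axis and the line of equal change, and C3 to the upper left, at -0.75 and 0.59.

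The interaction compared the log2 change with ApoA-I under LPS with that in its absence, and all 5 genes passed this test, as did 41.0% of tested genes. C1qa had 1.96 log2 units (SE 0.17, edgeR adjusted p = 4.15e-09), C1qb 1.76 (SE 0.08, edgeR adjusted p = 3.95e-13), C1qc 1.61 (SE 0.10, edgeR adjusted p = 6.48e-11) and C3 1.34 (SE 0.10, edgeR adjusted p = 4.41e-10). Lcn2 had -2.06 (SE 0.28, edgeR adjusted p = 3.71e-06). Calls with a positive value, as for C3 and the C1q chains, made up 20.8% of tested genes and calls with a negative value, as for Lcn2, 20.2%. The median log2 interaction over all tested genes was 0.04.

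Across the 16 libraries the profiles of log2 CPM were most alike between C1qb and C1qc (Pearson's r = 0.994). Among 8083 genes compared, C1qb was the 1st in likeness to C1qc, and C1qc was the 5th in likeness to C1qb. C1qa had r = 0.976 with C1qc and 0.951 with C1qb. C3 was less alike to the chains, with r = 0.843 to C1qa, 0.727 to C1qc and 0.666 to C1qb, and Lcn2 had r = -0.18 to C3 and -0.85 to C1qb. Within groups, after the group means were taken out, C1qa and C1qc still had r = 0.852 and C1qb and C1qc 0.740, and C3 had 0.671 with C1qc and 0.242 with C1qb. All these values share the same libraries and scaling and describe only them.

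Among the 8079 other genes of at least 10 mean CPM, ENSRNOG00000014604 was the most alike to C3 (r = 0.975 over the 16 libraries), with 6.03 ± 0.08 log2 CPM in Control and 6.02 ± 0.02 in ApoA-I libraries, 5.35 ± 0.09 with LPS and 6.39 ± 0.06 with LPS+ApoA-I (SD, n = 4 each). By this measure 15 genes had r over 0.95 with C3, against 45 on log2(TPM + 1) and 6 by Spearman correlation. The gene most alike to the mean of the C1q chains was ENSRNOG00000010756 (r = 0.994), at 7.04 ± 0.06 log2 CPM with ApoA-I, 5.71 ± 0.05 with LPS and 6.77 ± 0.03 with LPS+ApoA-I (SD, n = 4 each). With that mean 134 genes had r over 0.95, against 336 on log2(TPM + 1) and 20 by Spearman correlation. The most alike to Lcn2 was ENSRNOG00000062779 (r = 0.999), at 3.73 ± 0.06 log2 CPM in Control, 7.84 ± 0.03 in LPS and 7.25 ± 0.05 in LPS+ApoA-I libraries (SD, n = 4 each). With Lcn2 905 genes had r over 0.95, against 346 on log2(TPM + 1) and 22 by Spearman correlation, so these numbers of genes depend on the scale and the measure. The files do not pair these identifiers with names.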

How the data were processed

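Estimated counts and TPM per gene were deposited by the authors for 16 libraries. Named in the submitters' processing notes, with no roles, are RSEM 1.3.1, STAR 2.7.10b, cutadapt 1.8.1 and the mouse build mm10, whereas the identifiers are of Ensembl rat genes. No source used here names the rat annotation, and the assignment of reads to genes was not checked. Libraries were grouped by their titles. The deposited expected counts, of which 3.24% lay more than 0.005 from a whole number, were rounded, and 11902 of 30560 genes passed edgeR's filterByExpr at a minimum count of 10. A single edgeR model (4.0.16, R 4.3.3) of the 4 group means in all libraries, scaled by TMM, gave quasi-likelihood tests on 12 residual degrees of freedom, with Benjamini-Hochberg adjustment over all tested genes. SEs were taken from the log2 change and its F statistic. CPM uses TMM-scaled library sizes, and log2 CPM a prior count of 2. Levels of different genes are compared on the deposited TPM only. Alternatives used other scalings, DESeq2 1.42.0, limma 3.58.1 on log2(TPM + 1) or log2(TPM + 0.1), no filter, only the groups compared, a replicate block and each library left out; the covariate of abundant genes was chosen after seeing the data. The scripts were tested on simulated data in which few genes changed, equally many up and down. That test therefore does not cover the scaling where most genes change. The 5 genes, the lists and the tests were chosen with earlier results of these data known. Named beside the 5 genes are only the genes most alike to C3, to Lcn2 and to the mean of the C1q chains by Pearson's r. Planned lists of other complement genes and of cell type markers were not used, as identifiers could not be paired with symbols. No 2 replicates were the same library: in 24 pairs chi-square over its degrees of freedom was 3.14 to 95.8. Promoter sequences are from RefSeq (GRCr8), matched by symbol for 4 of the 5 genes.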

Additional observations from a re-analysis of the deposited data

Results flagged for a closer look

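The change with ApoA-I was not the same under LPS as in its absence for any of the 5 genes by the interaction test, with 1.34 log2 units for C3, 1.96 for C1qa, 1.76 for C1qb, 1.61 for C1qc and -2.06 for Lcn2 (edgeR adjusted p between 3.95e-13 and 3.71e-06). In LPS 4 the C3 level of 2191 CPM was far above the other 3 LPS libraries, the highest of which held 1885 CPM. LPS 4 also had 2.08% of its counts in the 8 abundant genes that vary together, against 10.2% or more in the other LPS libraries. With that share as a covariate the log2 change of C3 in LPS against Control was -0.752, against -0.749 as reported. The part of the share in the C3 level of LPS 4 was not tested. In LPS+ApoA-I 1 the C1qb level of 287 CPM was far below the other 3 libraries of its group, the lowest of which held 314 CPM. Such gaps were looked for in 20 groups of 4 values, and chance gives about 1 in 20.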

How the results depend on the processing

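In LPS against Control, LPS+ApoA-I against LPS and the interaction, all 5 genes kept their direction and call in each of the 27 alternatives (26 for the interaction), as did C3, C1qb, C1qc and Lcn2 in LPS+ApoA-I against ApoA-I and against Control. For C1qa in LPS+ApoA-I against Control the value turned to -0.11 with library totals only and to -0.15 in the 3 limma fits (-0.149713 on log2(TPM + 1) with or without the filter, -0.14998 on log2(TPM + 0.1)). Leaving out 1 library gave 0.0051 to 0.28.

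For C1qa in LPS+ApoA-I against ApoA-I the threshold was passed with library totals only (-0.54), DESeq2 size factors (-0.26), upper quartile factors (-0.31), no filter on low counts (-0.25), limma (-0.62 in all 3 fits), only the groups compared (-0.25) and the replicate block (-0.25), and 1 library left out gave -0.30 to -0.21. In ApoA-I against Control, C1qa passed with library totals only (0.43), no filter (0.37), limma on log2(TPM + 1) (0.47) and the replicate block (0.39), with 0.26 to 0.54 over 1 library left out. C1qb passed with DESeq2 (0.17), limma on log2(TPM + 1) and on log2(TPM + 0.1) (both 0.24) and the replicate block (0.16). C1qc was lost with limma without the filter (0.37), only the groups compared (0.29) and the covariate of abundant genes (0.27), and 1 library left out gave 0.24 to 0.36. C3 gave 0.11 to 0.22 over 1 library left out, and Lcn2, not called in any alternative, 0.20 to 0.69. The cause of these changes was not tested.

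No pairing of the libraries by replicate number was detected. Over 24 pairs of libraries with the same number the correlation of deviations from group means was -0.18 to 0.18. The best match had the same number in 13 of 48 cases. These values do not show that libraries with the same number had separate origins. The replicate block moved the count of calls by little, from 508 to 469 in ApoA-I against Control. That count was also 806 with DESeq2, 310, 238 and 100 in the 3 limma fits, 90 with only the groups compared, 224 with the covariate, and 186 to 781 over 1 library left out (285, 325, 202 and 781 without Control 1 to 4, 186 without ApoA-I 1). With library totals only, the calls that were higher made up 25.5% in LPS against Control (4326 of 8896 as reported), 83.1% in ApoA-I against Control (297 of 508), 71.8% in LPS+ApoA-I against LPS (3145 of 6114), 26.7% against ApoA-I (4111 of 8255), 31.2% against Control (4094 of 8284) and 65.1% in the interaction (2472 of 4880). The genes most alike to C3 and Lcn2 were others by Spearman correlation and on log2(TPM + 1), while that of the C1q mean changed by Spearman correlation only. Chain shares from counts in place of TPM kept the order of groups described for C1qa and C1qb. For C1qc the share by counts was 31.9% to 33.8% with LPS, above all other libraries (28.4% to 31.0%).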
